A study of Mus musculus with 2 samples.

Results

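The miR-181 family comprised 4 of the 336 known miRNAs to which a counted sequence could be assigned in small RNA libraries of whole mouse brain: mmu-miR-181a, mmu-miR-181b, mmu-miR-181c and mmu-miR-181d. Members were the names of the study's miRNA list without a star, the mark for the less abundant arm of a precursor. Each member was counted as its listed sequence together with all sequences that shared its first 18 nucleotides, whatever their 3′ end. All 4 members had at least 10 reads in a library, as did 267 of the 336 known miRNAs. The study compared miRNAs of the brain between young mice of 5 months and old mice of 24 to 25 months, all male C57BL/6J, an inbred laboratory strain. There was 1 library per age, and each combined the cDNA libraries of 2 mice, prepared from 10 µg of total RNA as the gel fraction from 18 to 30 nucleotides. Depth was 4523267 reads in the young and 6658732 in the old library, which fell into 372464 and 505732 distinct sequences, here called tags. The difference between the ages has no replicate check, and no test between ages could be made.

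A miRNA is cut from a hairpin precursor by Drosha and Dicer and guides Argonaute proteins to mRNAs that pair with its seed, the bases next to its 5′ end, which lowers their translation and stability. The members of the miR-181 family share 1 seed and can therefore act on overlapping sets of mRNAs. The family is known for its abundance in brain and in lymphoid cells, for tuning T cell receptor signalling in developing thymocytes, and for roles in neurons and astrocytes.

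The mature sequences are shown because the members differ from each other by few bases, and the counts depend on telling them apart. They were read from the RefSeq miRNA records (GRCm38.p6), 5′ to 3′, with the seed (bases 2 to 8) in capitals.
mmu-miR-181a-5p: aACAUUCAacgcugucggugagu
mmu-miR-181b-5p: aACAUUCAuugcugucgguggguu
mmu-miR-181c-5p: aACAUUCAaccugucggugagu
mmu-miR-181d-5p: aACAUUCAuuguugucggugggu
The seed ACAUUCA was found in these 4 names and in no other mature miRNA of the RefSeq table. The tag listed for miR-181b, 23 nucleotides, lacks the last base of the RefSeq sequence of 24 nucleotides. Over the first 23 nucleotides, counted from 1 at the 5′ end and with U written as T, miR-181a and miR-181b differed by A9T, C10T and A21G, and miR-181b and miR-181d by C12T alone. The sequence of miR-181c equalled that of miR-181a after deletion of the base at position 11. All of these differences lay outside the seed.

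The 4 members are encoded by 6 precursors in 3 pairs. In NCBIM37, the assembly to which the authors aligned the reads under the name mm9, Mir181a-1 lay at chr1:139863032-139863118 and Mir181b-1 at chr1:139863216-139863295, both on the + strand and 97 bases apart. Mir181a-2 at chr2:38708255-38708330 and Mir181b-2 at chr2:38709350-38709438 were 1019 bases apart on the + strand, opposite an intron of Nr6a1, which encodes a nuclear receptor. Mir181c at chr8:86702762-86702867 and Mir181d at chr8:86702615-86702686 were on the - strand, 75 bases apart. The pairs on chromosomes 1 and 8 overlapped no annotated gene. Reads of mature miR-181a and miR-181b could therefore come from either of 2 precursors each, whereas miR-181c and miR-181d each have 1.

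All 4 members had fewer reads in the old library, although that library was sequenced more deeply. miR-181a, the most abundant member, had 33352 reads in the young and 22674 in the old library, or 7373 and 3405 per 1000000 reads of the library (RPM). miR-181b had 14882 and 10487 reads, or 3290.1 and 1575 RPM. miR-181d had 10441 and 7315 reads, or 2308 and 1099 RPM. The least abundant member was miR-181c, with 933 and 742 reads, or 206 RPM in the young library (95% exact Clopper-Pearson interval 193 to 219.9) and 111 in the old (104 to 119.7). The order of the members was thus a, b, d, c in both libraries, and no intervals of neighbours in this order overlapped. With the exact listed tags alone the order was a, d, b, c in both libraries, with 1545 and 1291 reads for miR-181d and 1007 and 773 for miR-181b. The RefSeq sequence of miR-181b, 1 base longer than its listed tag, had 3130 and 2243 reads, which would put miR-181b before miR-181d again. Reads are PCR products and not independent molecules, so the intervals cover counting error only.

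**Figure D1:**
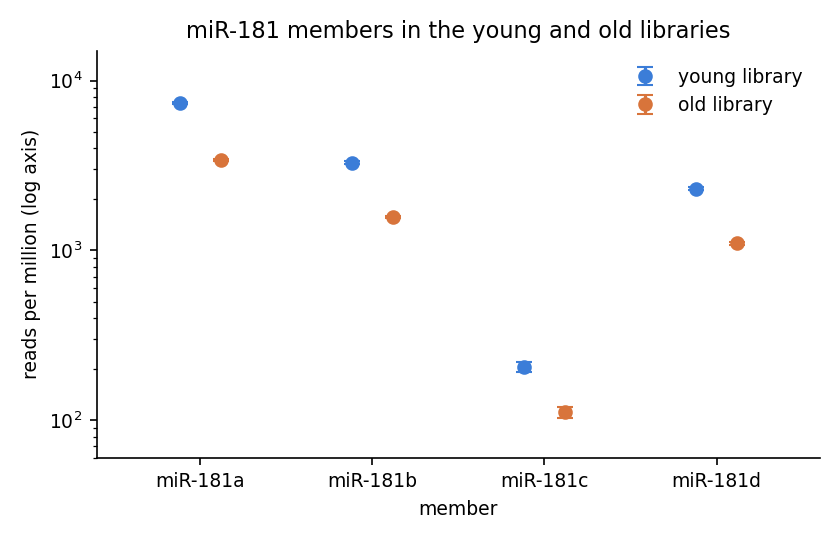
Reads RPM (log axis) of the 4 members in the young (blue) and the old (orange) library, 1 library per age, with 95% exact intervals for the counting of reads. Each member is lower in the old library, from 7373 to 3405 for miR-181a and from 206 to 111 for miR-181c.

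Relative to total reads, the summed family was 2.13-fold lower in the old library (interval 2.10 to 2.16), at 13178 RPM in the young and 6190.1 in the old. The log2 ratio of old over young was -1.11 for miR-181a (-1.14 to -1.09), -1.06 for miR-181b (-1.10 to -1.03) and -1.07 for miR-181d (-1.11 to -1.03). For miR-181c it was -0.89 (-1.03 to -0.75), and this interval overlapped those of miR-181b and miR-181d. By this scale 3 of the 4 members were at least 2-fold lower in the old library, against 83 of the 267 known miRNAs (31.1%). When only the exact listed tags were counted, 1 of the 4 members, miR-181a, was at least 2-fold lower, against 65 of 215 known miRNAs (30.2%). The listed tag of miR-181b was at -0.94 (-1.08 to -0.80), whereas its RefSeq sequence, 1 base longer, was at -1.04 (-1.12 to -0.96). Fewer cells that express the family and less of it per cell cannot be told apart in whole brain.

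Most known miRNAs were lower in the old library on the scale of total reads, 217 of 267, with a median log2 ratio of -0.72. The median of the 4 members was -1.07. Of the 267 known miRNAs, 60 had a lower ratio than miR-181a, 71 than miR-181d, 73 than miR-181b and 99 than miR-181c. The family therefore lay below the middle of the known miRNAs but not at their lower end. The difference of the summed family from their median was -0.37 on the log2 scale, and the differences of single members ran from -0.40 for miR-181a to -0.17 for miR-181c. A depth shifts all ratios alike, so these differences are the same with every depth by construction. Among 61 other known miRNAs whose GC content lay in the range of the members (43.5 to 47.8%), the median log2 ratio was -0.42 and 12 (19.7%) were at least 2-fold lower. By reads, miR-181a ranked 15th among the known miRNAs in the young and 24th in the old library, miR-181b 32nd and 40th, miR-181d 41st and 50th, and miR-181c 100th and 112th.

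**Figure D2:**
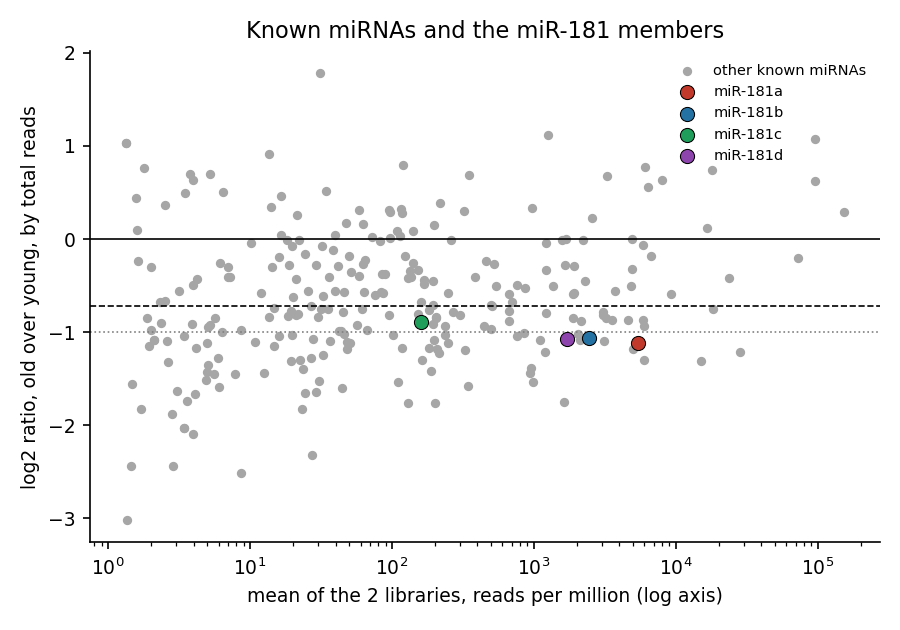
Log2 ratio of old over young by total reads against the mean of both libraries in RPM (log axis) for 267 known miRNAs (grey) and the 4 members among them (coloured). The solid line marks 0, the dashed line the median of -0.72 and the dotted line a 2-fold lower level, beyond which 3 members lie.

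The size of the difference depended on the depth to which the reads were related. The factors of TMM (edgeR) and the size factors of DESeq2, which centre most known miRNAs near no change, raised every log2 ratio by 0.71 and 0.72. The summed family was then at -0.38 and -0.37, and 0 of the 4 members were at least 2-fold lower, against 5.62% of the known miRNAs. Without the reads of the let-7 family in the depth, the shift was 0.37, the family was at -0.72 and again 0 members passed 2-fold, against 13.1% of the known miRNAs. Each member was lower in the old library under all 5 depths, and the value nearest 0 was that of miR-181c with the DESeq2 factors, -0.17 (-0.31 to -0.03). Of the 267 known miRNAs, 217 were lower by total reads, 224 by known-miRNA reads and 179 without let-7 reads in the depth. With either set of factors 134 were lower and 133 higher. Among the known miRNAs, 83 were at least 2-fold lower and 5 at least 2-fold higher by total reads, and 15 and 33 with either set of factors.

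**Figure D3:**
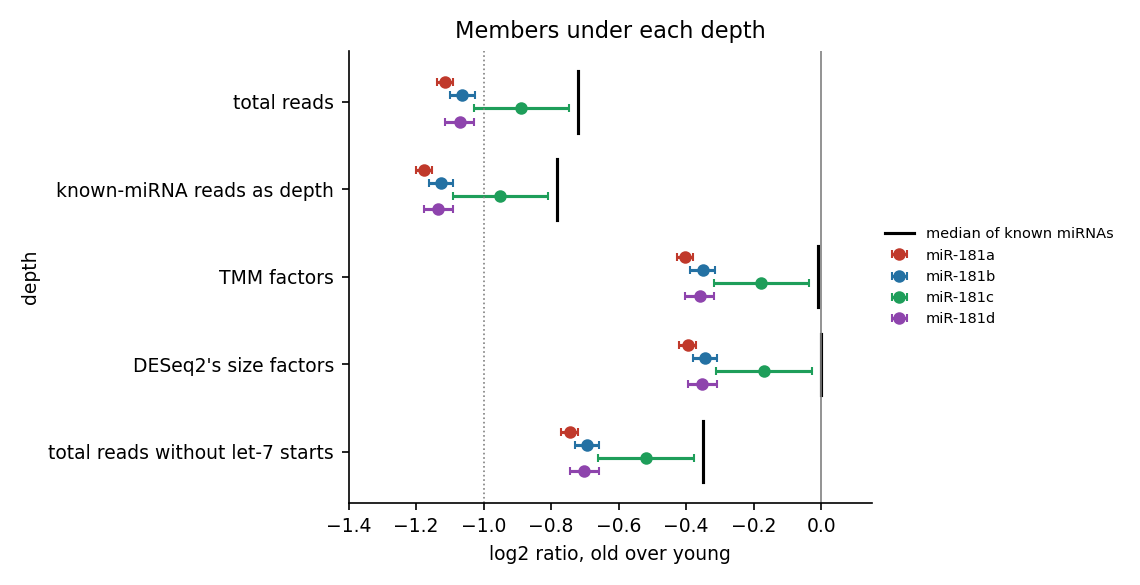
Log2 ratio of old over young of each member under 5 depths, with 95% exact counting intervals, and the median of the known miRNAs as a black bar. All members are below 0 under each depth, and with the factors of TMM or DESeq2 none reaches the dotted line of a 2-fold lower level. Their distance to the left of the median is the same under each depth, because a depth shifts all ratios alike.

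Within the family, the proportions of the members were close to each other in both libraries. miR-181a made up 56.0% of family reads in the young library (55.6 to 56.4%) and 55.0% in the old (54.5 to 55.5%). The shares of miR-181b were 25.0% and 25.4%, those of miR-181d 17.5% and 17.7%, and those of miR-181c 1.57% and 1.80%. These shares do not depend on the depth. The intervals of the libraries overlapped for miR-181b and miR-181d and did not for miR-181a and, by a narrow margin, miR-181c. For all but miR-181a this turned with the counting. Intervals of miR-181c overlapped with the exact tags, with an undetermined base allowed and without tags of 26 nucleotides, those of miR-181b separated without tags of 26 nucleotides, and those of miR-181d separated with the exact tags.

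Because miR-181b and miR-181d differ by C12T alone within the first 18 nucleotides, reads of one that were misread at that base would be counted as the other. Reads of miR-181d were 70.2% as many as those of miR-181b in the young library and 69.8% in the old. The 3 other C-to-T changes of the miR-181b start held at most 0.370% as many reads as miR-181b itself in the young library and 0.505% in the old. Among all 53 single changes of this start other than C12T, undetermined bases aside, the most frequent in each library held 0.894% and 0.849%. The same change of miR-181a, C12T, held 0.729% as many reads as miR-181a in the young library and 0.723% in the old. The reads of miR-181d were thus over an order of magnitude more frequent than each of these changes in the same library.

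Most reads of the family did not end where the listed tag ends. The listed tag held 12.3% of miR-181a reads in the young library and 12.8% in the old, 6.77% and 7.37% for miR-181b (its RefSeq sequence of 24 nucleotides held 3130 of 14882 young and 2243 of 10487 old reads), 9.75% and 9.57% for miR-181c, and 14.8% and 17.6% for miR-181d. Long reads were frequent in the family, as in some other miRNAs. Tags of 24 to 26 nucleotides held 33.2% of young miR-181a reads, 46.1% of miR-181b, 50.7% of miR-181c and 45.1% of miR-181d, against 3.53% of the summed reads of all other known miRNAs. In the old library these shares were 28.2%, 40.4%, 52.7% and 43.8%, against 2.71%. Among 122 other known miRNAs with at least 1000 reads, the median young share was 3.26%, and 6 had a larger share than miR-181c, 9 than miR-181b, 9 than miR-181d and 10 than miR-181a, with miR-30c the highest at 79.9%. Their median in the old library was 3.41%, and of 126 known miRNAs with as many reads, the members included, 46 had a lower share in the old library. miR-181a and miR-181b had in addition a group of tags of 18 to 20 nucleotides, with 29.3% and 30.6% of young reads, which was 10.3% for miR-181d and 2.25% for miR-181c.

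The most abundant tags show these ends, with the seed in capitals and the bases as sequenced.
miR-181a, 20 nucleotides: aACATTCAacgctgtcggtg
miR-181a, 25 nucleotides: aACATTCAacgctgtcggtgagttt
miR-181b, 24 nucleotides: aACATTCAttgctgtcggtgggtt
miR-181b, 20 nucleotides: aACATTCAttgctgtcggtg
miR-181c, 24 nucleotides: aACATTCAacctgtcggtgagttt
miR-181d, 24 nucleotides: aACATTCAttgttgtcggtgggtt
The miR-181a tag of 20 nucleotides had 6645 reads in the young and 4671 in the old library, a log2 ratio of -1.07 (-1.12 to -1.01). The tag of 25 nucleotides had 5994 and 3316 reads, and its ratio of -1.41 (-1.47 to -1.35) was lower than that of the shorter tag, with intervals that did not overlap. For miR-181b the tag of 24 nucleotides had 3130 and 2243 reads, and that of 20 nucleotides 2058 and 1565. For miR-181c the tag of 24 nucleotides alone held 44.3% of young and 47.4% of old reads of the member, with 413 and 352 reads. The corresponding tag of miR-181d had 2246 and 1609 reads.

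**Figure D4:**
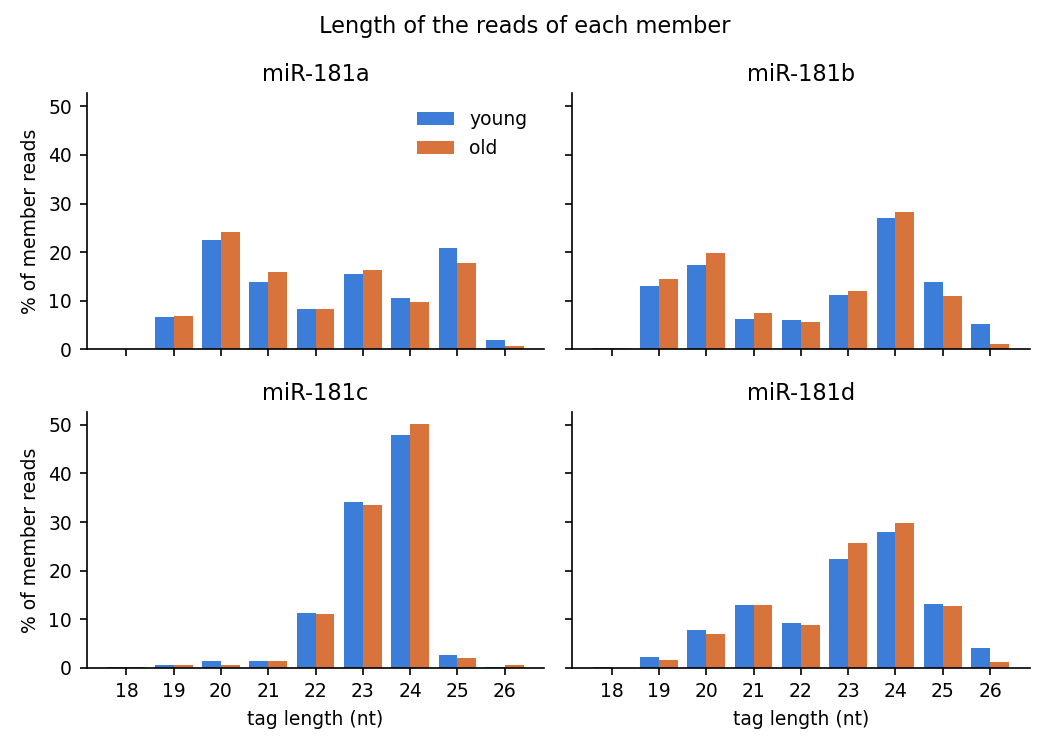
Share of each member's reads (%) by tag length in nucleotides, from 18 to 26, in the young (blue) and old (orange) library. miR-181a has high bars at 20, 23 and 25 nucleotides and miR-181b at 19 to 20 and at 24, miR-181c is mostly at 23 and 24, and the bars at 26 nucleotides are lower in the old library for miR-181a, miR-181b and miR-181d.

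At 26 nucleotides, the longest tags of the files, the ratios of miR-181a, miR-181b and miR-181d were lower than at each other length with at least 100 young reads of the member. miR-181b had 789 such reads in the young and 114 in the old library (log2 ratio -3.35, -3.65 to -3.06). miR-181d had 418 and 89 reads (-2.79, -3.14 to -2.46) and miR-181a 609 and 173 (-2.37, -2.63 to -2.13). miR-181c had 1 and 4 reads, too few for a comparison. Summed over the family these tags were 3.05% of young and 0.922% of old reads. Over all other known miRNAs they were 0.0948% and 0.0559%, with 2943 and 2696 reads and a log2 ratio of -0.68. Of 48 other known miRNAs with at least 10 reads of this length in a library, 35 were lower in the old library by total reads, 20 at least 2-fold and 9 at least 5-fold, with a median of -0.67. Over all lengths, 81.3% of the known miRNAs were lower and 31.1% at least 2-fold, with a median of -0.72. Ratios as low as those of the members at 26 nucleotides were thus found in single other miRNAs. The 48 are only a part of the known miRNAs, so the 2 medians are not of the same set and cannot be compared. In the summed reads of all other known miRNAs, the share of this length was lower in the old library. Its intervals did not overlap (0.0915 to 0.0983% in the young against 0.0538 to 0.0581% in the old). The cause of the low ratios was not tested. Without these tags the summed family was at -1.06, so they made a small part of its difference.

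The most abundant tags of 26 nucleotides ended in a run of T. They are shown with the last 3 bases in capitals.
miR-181a: aacattcaacgctgtcggtgagtTTT
miR-181b: aacattcattgctgtcggtgggtTTT
miR-181d: aacattcattgttgtcggtgggtTTT
They had 482 and 126 reads for miR-181a, 436 and 47 for miR-181b, and 221 and 40 for miR-181d in the young and old library. The RefSeq precursors continue after base 23 of the mature sequence as follows, with that part in capitals.
Mir181a-1: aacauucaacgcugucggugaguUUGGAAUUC
Mir181a-2: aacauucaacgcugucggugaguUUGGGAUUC
Mir181b-1: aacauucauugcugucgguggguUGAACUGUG
Mir181b-2: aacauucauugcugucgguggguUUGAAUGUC
Mir181d: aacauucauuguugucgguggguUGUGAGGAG
The first base at which each of these 3 tags departs from the nearest precursor of its member was base 26 for miR-181a, base 26 for miR-181b, where that precursor is Mir181b-2, and base 25 for miR-181d. Added A and U bases at 3′ ends are a known product of terminal nucleotidyltransferases. The source of the bases counted here was not tested. Tags that match a precursor over their whole length held 84.1% of miR-181a reads in the young library and 82.4% in the old, 70.1% and 71.0% of miR-181b reads, and 64.4% and 65.0% of miR-181d reads. A tail was taken as the last 1 to 3 bases of a tag after it departs from the precursor, at any tag length. A misread last base, or a base kept from the 3′ adapter, which starts with T, would be counted as a tail too. Tags with a tail of T held 3.12% and 2.81% for miR-181a, 6.53% and 5.24% for miR-181b, and 10.5% and 8.89% for miR-181d. Tails of A held 5.50% and 5.82%, 9.43% and 9.03%, and 14.4% and 14.3% of the same members. For miR-181b and miR-181d the T-tail intervals of the libraries did not overlap (6.14 to 6.94% against 4.82 to 5.68%, and 9.92 to 11.1% against 8.24 to 9.56%). Tails of A were within overlapping intervals in each of these 3 members. Other tails of 1 to 3 bases held 10.9% and 11.4% for miR-181b and 8.96% and 9.47% for miR-181d, with overlapping intervals. For miR-181a they held 3.65% (3.46 to 3.86%) in the young and 4.85% (4.57 to 5.13%) in the old library, a higher share in the old, and the share that matched a precursor was lower there (83.7 to 84.5% against 81.9 to 82.9%). The lower T-tail shares of the old library rested on the tags of 26 nucleotides. Without them, a setting chosen after seeing the data, T tails held 3.77% of young and 4.84% of old miR-181b reads and 1.71% and 2.27% of miR-181a reads, both higher in the old library with intervals that did not overlap, and 8.74% and 8.44% of miR-181d reads, with overlapping intervals. The intervals then also separated for the share of miR-181b that matched a precursor (74.0% and 71.8%). They separated too for the other tails of miR-181d (7.72% and 9.08%) and for miR-181b tags in none of these classes (2.49% and 3.18%). Those of A tails overlapped as before. Over all lengths, miR-181a tags in none of these classes held 3.59% of young and 4.11% of old reads, with intervals that did not overlap. For miR-181c, 81.5% of young and 83.0% of old reads began with the whole mature sequence.

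The base after position 24 separates the precursors of miR-181b, which is G in Mir181b-1 and T in Mir181b-2. Tags of 25 nucleotides with T there had 1183 reads in the young and 596 in the old library, and those with G had 7 and 0. For miR-181d, whose precursor has G at this place, the T form, found in no precursor of the member, had 710 and 452 reads and the G form 5 and 3. The T form was thus 7.95% of young and 5.68% of old miR-181b reads, and 6.80% and 6.18% of miR-181d reads. The order of these members by this share turned between the libraries. No intervals are given for these shares, so the turn may lie within counting error. A T from Mir181b-2 cannot be told apart from an added T by these reads.

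The 3′ arms of the precursors, which differ between loci, are shown with their seeds in capitals.
miR-181a-1-3p: aCCATCGAccgttgattgtacc
miR-181a-2-3p: aCCACCGAccgttgactgtacc
miR-181b-1-3p: cTCACTGAacaatgaatgcaa
miR-181b-2-3p: cTCACTGAtcaatgaatgcaaa
miR-181c-3p: aCCATCGAccgttgagtggacc
miR-181d-3p: cCCACCGGgggatgaatgtca
miR-181a-1-3p and miR-181c-3p share a seed, as do the 2 arms of miR-181b. miR-181a-1-3p had 475 reads in the young and 284 in the old library (log2 ratio -1.30, -1.52 to -1.08), and miR-181a-2-3p had 79 and 34 (-1.77, -2.40 to -1.18). Of the 3′ arm reads of both miR-181a precursors, 85.7% in the young library (82.5 to 88.5%) and 89.3% in the old (85.4 to 92.5%) came from Mir181a-1, and these intervals overlapped. miR-181b-1-3p had 26 and 19 reads and miR-181b-2-3p 1 and 0. The 3′ arm reads of miR-181a and miR-181b were thus mostly from the pair on chromosome 1 in both libraries. They do not show how the 5′ arm reads divide between the loci.

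miR-181c was the member with the largest share of 3′ arm reads. miR-181c-3p had 238 reads in the young and 146 in the old library (log2 ratio -1.26, -1.57 to -0.96). It made up 20.3% of the reads of both arms in the young library (18.1 to 22.7%) and 16.4% in the old (14.1 to 19.0%), with overlapping intervals. The 3′ arm share was 1.63% and 1.38% for miR-181a and 0.181% in both libraries for miR-181b. miR-181d-3p had 0 reads with its annotated start in both libraries, and 1 old read that started within 2 bases of it. A count of 0 allows a share of up to 0.0287% in the young and 0.0410% in the old by 3 reads of the total of both arms, and the exact intervals drawn for this member reach 0.0353% and 0.0504%. miR-181c and miR-181d, whose precursors are neighbours on chromosome 8, were therefore at opposite ends of this measure. No tag lay in the loop of the 5 precursors whose sequence was searched, all but Mir181c.

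**Figure D5:**
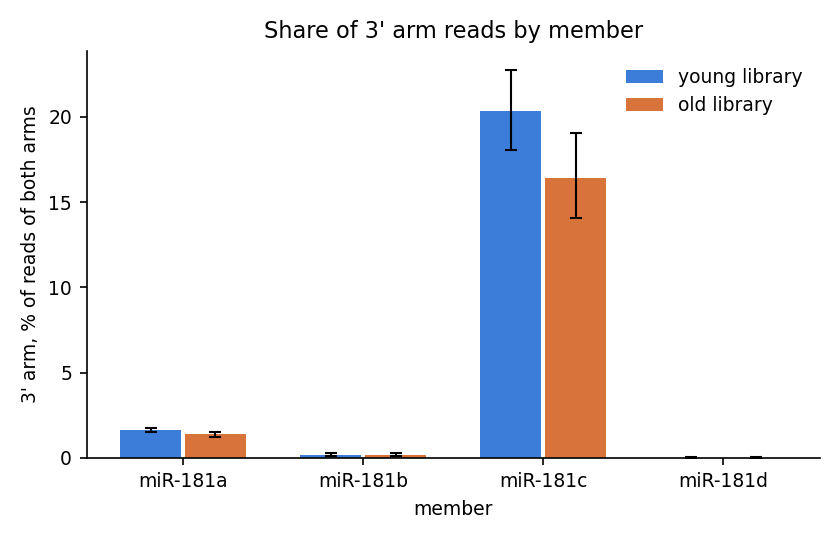
Reads of the 3′ arm as a share (%) of the reads of both arms for each member in the young (blue) and old (orange) library, with 95% exact intervals for the counting of reads. miR-181c stands at 20.3% and 16.4%, the other 3 members at 1.63% or less.

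The 5′ end of the family, which sets the seed, was nearly uniform. Tags that started 1 base later, with the seed CATTCAA or CATTCAT, had 107 reads in the young and 53 in the old library for miR-181a, or 0.321% and 0.234% of the reads with the main start. For miR-181b they had 102 and 54 reads (0.685% and 0.515%), for miR-181d 36 and 26 (0.345% and 0.355%), and for miR-181c 1 and 2. Starts 1 base earlier had 15 and 17 reads for miR-181b, 0 and 1 for miR-181a and 2 and 0 for miR-181d.

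Undetermined bases moved with the libraries. They were present in 4.57% of all young and 1.07% of all old reads, and such tags were not in the member counts when the undetermined base lay in the first 18 nucleotides. Tags with 1 undetermined base in an otherwise matching start added 2462 young and 308 old reads to the family, or 4.13% and 0.747%. A further 44 young and 0 old reads with an undetermined base were equally near to miR-181b and miR-181d and were left out. In miR-181a, 1301 of the young tags' reads had it at position 2, against 89 in the old library. With these reads included, which was tried only once the data were known, the log2 ratio of the summed family was -1.14 in place of -1.09.

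The known miRNAs with at least 1000 reads whose ratio was nearest to that of the summed family, among 122 candidates and over the 2 libraries, were miR-221 (-1.09), miR-541 (-1.08), miR-382 (-1.08), miR-151-3p (-1.08) and miR-676 (-1.12). With 1 library per age, this likeness is 1 number for each miRNA.

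Lists of miRNAs grouped by cell or tissue type are given beside the family, where a miRNA was tested if it had at least 10 reads in a library. A list can mix cell types, as that of blood and immune cells does, and its miRNAs need not be confined to them. The 6 miRNAs of the neuron list summed to 74670 RPM in the young and 38078 in the old library, and all 6 were lower in the old by total reads, miR-137 at -0.01 (-0.12 to 0.10). Of all known miRNAs 81.3% were lower and 31.1% at least 2-fold lower on this scale. The median log2 ratio of the neuron list was -0.66, and the most abundant, miR-124, had 178300 and 113206 reads (-1.21) and was the only 1 at least 2-fold lower. The 3 of the oligodendrocyte list summed to 12266 and 7976 RPM, led by miR-219-3p, with a median of -0.71 and 1 at least 2-fold lower, miR-219-5p at -1.04. Of the blood and immune list 6 of 9 names were tested. They had a median of -0.67, 5 lower and 1 higher, and the list summed to 1524 and 952 RPM, led by miR-146b. In this list miR-142-5p, a miRNA of blood cells, was at 0.52, miR-451 of red cells at -0.92, and miR-155 and miR-223 had at most 2 and 5 reads in a library. The 2 tested names of the vascular list, miR-143 and miR-126-5p, had a median of -0.52 and summed to 5945 and 3281 RPM. The muscle list summed to 7456 and 10868 RPM, most of it miR-1, which was at 0.64. Its other tested name, miR-206, was at -0.04 (-0.09 to 0.01), so that 1 was higher and 1 lower, with a median of 0.30, and miR-133b had 9 and 6 reads. The names miR-150, miR-133a, miR-126-3p and miR-145 could not be assigned to a tag by the matching rule and have no value here, which does not mean that they were not sequenced.

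Relative to the median of the known miRNAs, the medians of the lists were 0.06 for neuron, 0.01 for oligodendrocyte, 0.05 for blood and immune, 0.20 for vascular and 1.02 for muscle, against -0.35 for the median of the members. By summed reads the values were -0.25 for neuron, 0.10 for oligodendrocyte, 0.04 for blood and immune, -0.14 for vascular and 1.26 for muscle, against -0.37 for the summed family. Summed neuron and vascular reads thus lay below the known median, as the family did, while their unweighted medians lay above it. This sets sums against an unweighted median of single ratios. By total reads the sums were at -0.97 for neuron, -0.62 for oligodendrocyte and -0.68 for blood and immune. They were at -0.86 for vascular, mostly miR-143, and 0.54 for muscle. Summed known-miRNA reads had an old over young ratio of 1.54, against 1.47 for total reads. Against sums, every list but muscle was thus lower. Each depth adds 1 constant to all ratios, so the values relative to the known median do not depend on the depth. The sign of a list's own ratio does, where the list lies close to the known median. The part of these cell types in the lower family reads was not tested.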

How the data were processed

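Small RNAs of whole brain were measured in 1 young and 1 old library. The authors removed the 3′ adapter, aligned reads to mm9 with SOAP (version not given in the sources used here) and collapsed identical sequences, and the deposited values were raw counts of reads per distinct sequence. The files thus hold aligned and trimmed reads only, and a product whose added 3′ bases kept it from aligning would not be counted. The members and lists were chosen with earlier results of these data known. The tag of a name was the only tag that held both counts of the study's list (173 of 405 names without a star) or the RefSeq mature sequence (167), and 65 names had none. Each tag was given to the name with the longest matching start of at least 18 nucleotides. Counts were divided by the total reads of the library and given per 1000000 reads (RPM). Log2 ratios carry exact 95% intervals conditional on the summed reads, and shares exact Clopper-Pearson intervals. In ratios, 0.5 stood for a count of 0. No p-value is given, since 1 library per age leaves nothing to test the ages with. At 3 reads, the limit that a count of 0 allows, the floor was 0.663 RPM in the young and 0.451 in the old library. Named miRNAs were the members, their 3′ arms, the 3 most abundant tags of each member, the 5 nearest miRNAs and the lists, while the tags of 26 nucleotides, the undetermined bases and the C12T change of miR-181a were singled out after their values had been seen. Precursor positions came from GENCODE on NCBIM37. Alternatives were other depths, matching rules, read minimums, a GC correction and a 1.5-fold threshold. The ratios and intervals were run on simulated Poisson counts, which hold counting error only and no variation between mice, libraries or PCR copies. TMM factors came from edgeR 4.0.16 and size factors from DESeq2 1.42.0, run under R 4.3.3. Intervals came from scipy 1.17.1, and medians and the GC fit from numpy 2.4.6, under Python 3.11.15.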

Additional observations from a re-analysis of the deposited data

How the results depend on the processing

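All 59 log2 ratios of the members and the summed family under the alternatives were below 0. Under the 5 depths, from 134 to 224 of the 267 known miRNAs were lower. The size of the ratios and the number of members past 2-fold depended on the depth. With TMM factors the summed family was at -0.38, miR-181a at -0.40, miR-181b at -0.35, miR-181c at -0.18 and miR-181d at -0.36. With DESeq2's size factors they were at -0.37, -0.40, -0.34, -0.17 and -0.35, and without let-7 reads in the depth at -0.72, -0.74, -0.69, -0.52 and -0.70. Under these 3 depths 0 of the 4 members were at least 2-fold lower, against 5.62%, 5.62% and 13.1% of the known miRNAs. With known-miRNA reads as depth the family was at -1.15, miR-181a at -1.18, miR-181b at -1.13 and miR-181d at -1.13. With the exact tag only, 1 member passed 2-fold, the family was at -0.98, miR-181a at -1.05, miR-181b at -0.94 and miR-181d at -0.82. The shares of miR-181a, b, c and d were then 60.8%, 14.9%, 1.35% and 22.9% in the young and 57.7%, 15.3%, 1.41% and 25.6% in the old library. By the first 20 nucleotides the family was at -1.14, miR-181a at -1.16 and miR-181b at -1.15. The GC correction gave -1.15 for the family, -1.14 for miR-181a and -1.26 for miR-181d, and 4 members past 2-fold, against 27.3% of the known miRNAs. With 1 substitution allowed the family was at -1.12, miR-181a at -1.14, and the share of miR-181c was 1.68% and 1.97%. Tags that match the precursor throughout gave -1.14 for miR-181a. miR-181c and the shares were not run under that setting. The next 2 settings were chosen after seeing the data. With 1 undetermined base allowed the family was at -1.14, miR-181a at -1.16 and miR-181b at -1.11. Without tags of 26 nucleotides the family was at -1.06, miR-181b at -1.0, and the young shares of miR-181a and miR-181b were 56.7% and 24.4%. A 1.5-fold threshold was passed by 54.7% of the known miRNAs and by 4 of 4 members. The cause of these shifts was not tested beyond the construction of each setting. The other 55 values stayed within their counting interval or within 1.5 times the main count.

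No paired analysis was possible because there was 1 library per age and no test. The depth limits the rare products. For miR-181b-2-3p, miR-181d-3p, the 26-nucleotide tags and shifted starts of miR-181c, and starts 1 base earlier, a difference between the libraries was not detectable at this depth. Reads of different sequences were not calibrated against molecules, so the order of the members is an order of reads. Age, the pool of 2 mice and the library cannot be told apart.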
